A study of Mus musculus with 12 samples.

Results

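The genes described here are *Pparg*, which encodes the nuclear receptor PPARγ, and 8 genes that respond to it in livers that store fat: *Cd36*, *Lpl*, *Vldlr*, *Fabp4*, *Mogat1*, *Cidea*, *Cidec* and *Plin4*. They are 9 of the 54232 genes in the deposited count table and were taken by their symbols. A gene was tested when 6 or more livers each had over 2 reads on it, which kept 8 of these 9 genes and 17509 genes in all. The data are liver mRNA sequencing of 6 WT and 6 *Marchf6* LKO mice with 1 library per mouse. All mice were male littermates on the C57Bl/6J background, 10 weeks old, fed standard chow and fasted for 4 h. Mice of both groups carried loxP sites around an exon of both *Marchf6* copies (*Marchf6* fl/fl). The LKO mice also carried AlbuminCre, a Cre recombinase under the albumin promoter that deletes the exon in hepatocytes, and the WT mice were AlbuminCre negative. No group carried Cre without floxed alleles, so effects of Cre and of the deletion cannot be told apart. MARCHF6 is a ubiquitin ligase of the endoplasmic reticulum membrane, and the comparison asks how its loss from hepatocytes changes lipid gene expression.

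PPARγ is a ligand-activated transcription factor that binds DNA together with a retinoid X receptor, and it is the master regulator of fat cell differentiation. Healthy liver makes little of it. In fatty liver, hepatocytes can switch on PPARγ and, with it, genes that fat cells use to take up fatty acids, to esterify them and to coat lipid droplets. The related receptor PPARα is the abundant form in hepatocytes, drives fatty acid oxidation during fasting, and can act on some of the same genes.

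Libraries held 14860414 to 22111926 counted reads, and no library was identical to another. Levels are counts per unit of library size (normalized CPM) after TMM scaling, which evens out differences in library composition. *Marchf6* itself had 226 to 247 CPM in WT and 204 to 249 CPM in LKO livers, with a log2 fold change of -0.09 ± 0.06 (SE, n = 6 per group, edgeR adjusted p = 0.585). Its count includes all exons of the gene, so it does not check the loss of 1 exon. Markers of hepatocytes summed to 112112 to 132346 CPM in WT and 102552 to 115839 CPM in LKO livers. *Alb* made up most of this sum in each liver, with 70269 to 88637 CPM in WT and 64628 to 70334 CPM in LKO. Of 7 adipocyte markers, *Plin1*, *Lep*, *Retn*, *Adipoq* and *Adig* were at or near 0 and did not pass the filter, and the list summed to 3.35 to 11.0 CPM in WT and 4.23 to 11.4 CPM in LKO livers, mostly from *Adrb3*. The WT libraries carry the lower library numbers and the LKO libraries the higher ones, so genotype and library order cannot be told apart.

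The starts of *Pparg* and *Cd36* are shown because their levels had a positive correlation from liver to liver, described after the members, and because the count of *Pparg* merges the transcripts of 3 starts. RefSeq windows of GRCm38.p6, with 250 bases before and 50 after an annotated start, were found for 6 of the 9 genes, in 10 windows. No window was found for *Fabp4*, *Lpl* and *Cidea*. Capitals mark AGGTCA, the core motif that nuclear receptors of this family bind, on either strand. The windows of *Pparg* are chr6:115360894-115361193, chr6:115362099-115362398 and chr6:115421816-115422115 on the plus strand. That of *Cd36* is chr5:17835847-17836146 on the minus strand, and each is given 5′ to 3′. This *Cd36* window lies inside the gene model, which runs from 17781690 to 17888801, and not at its 5′ end.
Pparg start 1: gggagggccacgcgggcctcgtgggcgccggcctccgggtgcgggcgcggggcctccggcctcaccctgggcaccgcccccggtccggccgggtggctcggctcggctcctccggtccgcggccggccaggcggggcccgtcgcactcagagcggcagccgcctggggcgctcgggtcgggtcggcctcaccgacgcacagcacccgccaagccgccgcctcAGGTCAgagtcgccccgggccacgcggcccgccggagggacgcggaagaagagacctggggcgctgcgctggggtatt
Pparg start 2: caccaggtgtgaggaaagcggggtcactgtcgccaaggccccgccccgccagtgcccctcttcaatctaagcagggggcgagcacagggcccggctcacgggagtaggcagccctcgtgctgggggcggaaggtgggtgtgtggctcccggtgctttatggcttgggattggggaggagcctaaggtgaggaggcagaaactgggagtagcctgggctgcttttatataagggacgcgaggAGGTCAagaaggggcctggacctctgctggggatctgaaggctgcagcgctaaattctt
Pparg start 3: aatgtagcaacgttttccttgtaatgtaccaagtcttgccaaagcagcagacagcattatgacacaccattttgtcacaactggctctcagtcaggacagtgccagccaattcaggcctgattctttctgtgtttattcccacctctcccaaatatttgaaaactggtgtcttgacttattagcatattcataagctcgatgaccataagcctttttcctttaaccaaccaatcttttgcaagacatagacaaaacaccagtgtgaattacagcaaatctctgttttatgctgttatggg
Cd36: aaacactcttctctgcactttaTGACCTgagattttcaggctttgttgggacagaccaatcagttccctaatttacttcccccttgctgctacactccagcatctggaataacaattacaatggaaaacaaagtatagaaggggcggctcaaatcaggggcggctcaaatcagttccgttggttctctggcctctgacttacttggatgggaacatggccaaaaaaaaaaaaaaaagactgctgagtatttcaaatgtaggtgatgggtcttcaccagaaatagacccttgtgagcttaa
AGGTCA occurred 28 to 23 bases before the start in the first *Pparg* window and 9 to 4 bases before it in the second. On the opposite strand, it occurred 228 to 223 bases before the *Cd36* start shown. These were 3 of the 10 windows, and 16.3% of all 32851 windows held the motif. The direct repeat called DR1, AGGTCA repeated after 1 base of any kind, was searched on both strands. It contains the single motif and was in none of the 10 windows and in 0.0396% of all windows. A match is a description of the letters, and binding was not measured.

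All 8 tested genes had a positive log2 fold change between LKO and WT livers, with a median of 0.87, against a median of 0.00016 and 50.0% positive values over all genes tested. *Lpl* was the member that rose past the test (edgeR quasi-likelihood test, Benjamini-Hochberg adjustment over all genes). That is 1 of 8 tested members, where 0.428% of all genes tested passed in either direction and 0.274% as higher in LKO. At an unadjusted p under 0.05, 3 of the 8 were higher, *Lpl*, *Cd36* and *Pparg*, and the background was 6.33% of all genes tested (11.7% in either direction). The members were chosen with results of these data known, so these counts are descriptions.

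**Figure D1:**
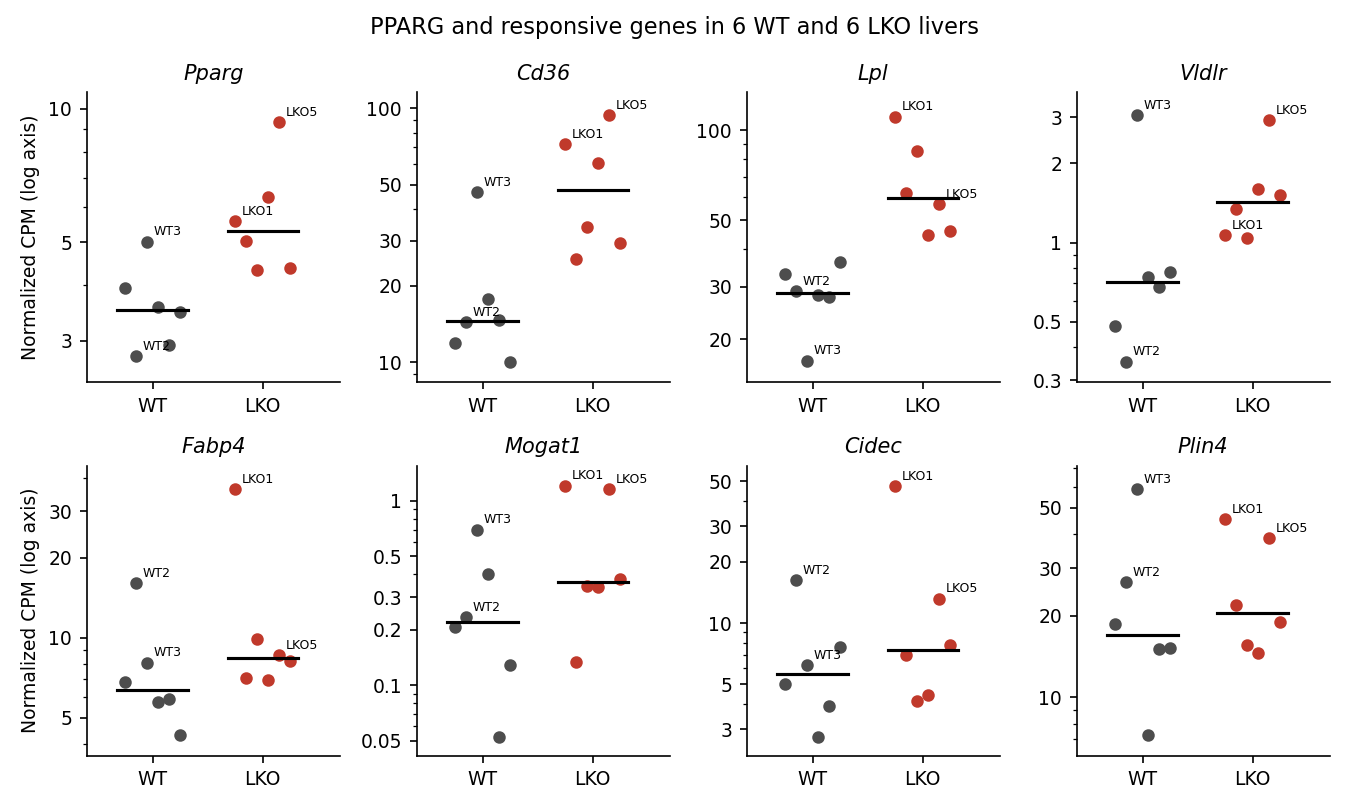
Normalized CPM of the 8 tested genes on log axes, 1 point per liver, with black lines at the group medians. The *Lpl* values of the 6 LKO livers all lie above the 6 WT livers, the other genes overlap, and the labelled livers WT2, WT3, LKO1 and LKO5 hold most of the extreme values.

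*Pparg*, the receptor, lies on chromosome 6 of GRCm38 (115360951 to 115490399, plus strand) and was a low transcript in every liver. Its level ran from 2.77 to 5.02 CPM in WT, with a median of 3.52, and from 4.33 to 9.33 CPM in LKO, with a median of 5.30. The lowest LKO livers were within the WT range, and 4 of 6 LKO livers were above the highest WT liver. These levels rest on 47 to 79 reads per WT liver and 75 to 217 reads per LKO liver. The difference was 0.70 ± 0.20 (SE) on the log2 scale, with an edgeR p of 0.00342 before adjustment and 0.164 after it. LKO5 was the highest liver, and without it the log2 fold change was 0.51 (edgeR adjusted p = 0.286). The gene model *Gm44079* on the opposite strand overlaps it, and the strand setting of the counting is not given in the sources used here. The same holds for *Mogat1* with *BC035947*, for *Cidea* with *B430212C06Rik*, and for the last 17 nt that *Plin4* shares with *Hdgfl2*.

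Genes that bring lipid into the cell come next. *Cd36* encodes a scavenger receptor that takes up long-chain fatty acids. Its level ran from 10.0 to 46.7 CPM in WT, with a median of 14.5, and from 25.5 to 94.0 CPM in LKO, with a median of 47.6. The highest WT liver was WT3, and the next WT liver had 17.7 CPM, below all 6 LKO livers. LKO livers differed by 1.46 ± 0.40 (SE) on the log2 scale, with an edgeR p of 0.00223 before adjustment and 0.134 after it. Without WT3 the log2 fold change was 1.94 and passed the test (edgeR adjusted p = 0.0103), whereas over all alternatives that kept all livers the adjusted p ran from 0.0597 to 0.132.

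*Lpl* encodes lipoprotein lipase, which frees fatty acids from circulating triglyceride-rich lipoproteins and is mainly a product of fat, muscle and macrophages in adult animals. WT livers had 17.0 to 36.3 CPM, with a median of 28.6, and LKO livers 44.5 to 111 CPM, with a median of 59.1. The groups did not overlap, as was the case for 1.30% of all genes tested. The log2 fold change was 1.24 ± 0.22 (SE, n = 6 per group), a 2.37-fold rise with an edgeR adjusted p of 0.0207. The call was lost without WT4 (adjusted p = 0.0578), WT5 (0.0698) or LKO3 (0.0547), with log2 fold changes of 1.24, 1.24 and 1.17.

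Markers of some other liver cell types moved in the same direction as *Lpl*. Kupffer cells are the resident macrophages of the liver, and all 8 of their markers had positive log2 fold changes, with a median of 0.41. None passed the edgeR test after adjustment, and 7 of 8 did at an unadjusted p under 0.05, where 6.33% of all genes tested were higher. Their summed level was 112 to 151 CPM in WT and 142 to 243 CPM in LKO livers. The sum of 7 stellate cell markers was 196 to 299 CPM in WT and 241 to 338 CPM in LKO, and that of 5 B cell markers was 0.967 to 1.88 CPM in WT and 1.81 to 3.29 CPM in LKO. The 9 endothelial markers summed to 187 to 239 CPM in WT and 197 to 244 CPM in LKO. Of these, 7 had positive and 2 negative log2 fold changes, with a median of 0.04. In whole tissue, more cells of a type and more RNA per cell cannot be told apart, and the part of these cells in the *Lpl* value was not tested.

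Cholangiocyte markers summed to 37.0 to 63.5 CPM in WT and to 34.1 to 53.0 CPM in 5 LKO livers, and LKO1, which had the highest *Lpl*, stood apart at 129 CPM. *Spp1* made up most of this sum in each liver, with 26.8 to 47.6 CPM in WT livers and 114 CPM in LKO1. In LKO1 the markers *Krt19* and *Epcam* were also above the WT range, and *Krt7* and *Sox9* were within it. The cholangiocyte sum is thus mainly a reading of 1 gene. Without LKO1 the log2 fold change of *Lpl* was 1.04 (edgeR adjusted p = 0.0283). Across the 12 livers, in deviations from the mean of each genotype, none of the 48 Pearson correlations between the 8 genes and these 6 marker sums had an adjusted p under 0.05. The lowest p was that of *Lpl* with the cholangiocyte sum, with r = 0.77 (permutation p = 0.00616, adjusted 0.296) and rho = 0.67 (permutation p = 0.0285, adjusted 0.574), and r was 0.33 without the 2 livers farthest from the *Lpl* median. For *Lpl* with the Kupffer sum, r was 0.35 and rho 0.45 (permutation p = 0.347). For *Fabp4* with the endothelial sum, r was 0.65 (permutation p = 0.0319, adjusted 0.510), rho was 0.87 (permutation p = 0.00089, adjusted 0.0427), and r was 0.82 without the 2 livers farthest from the *Fabp4* median. These relations were chosen after the values were seen.

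**Figure D2:**
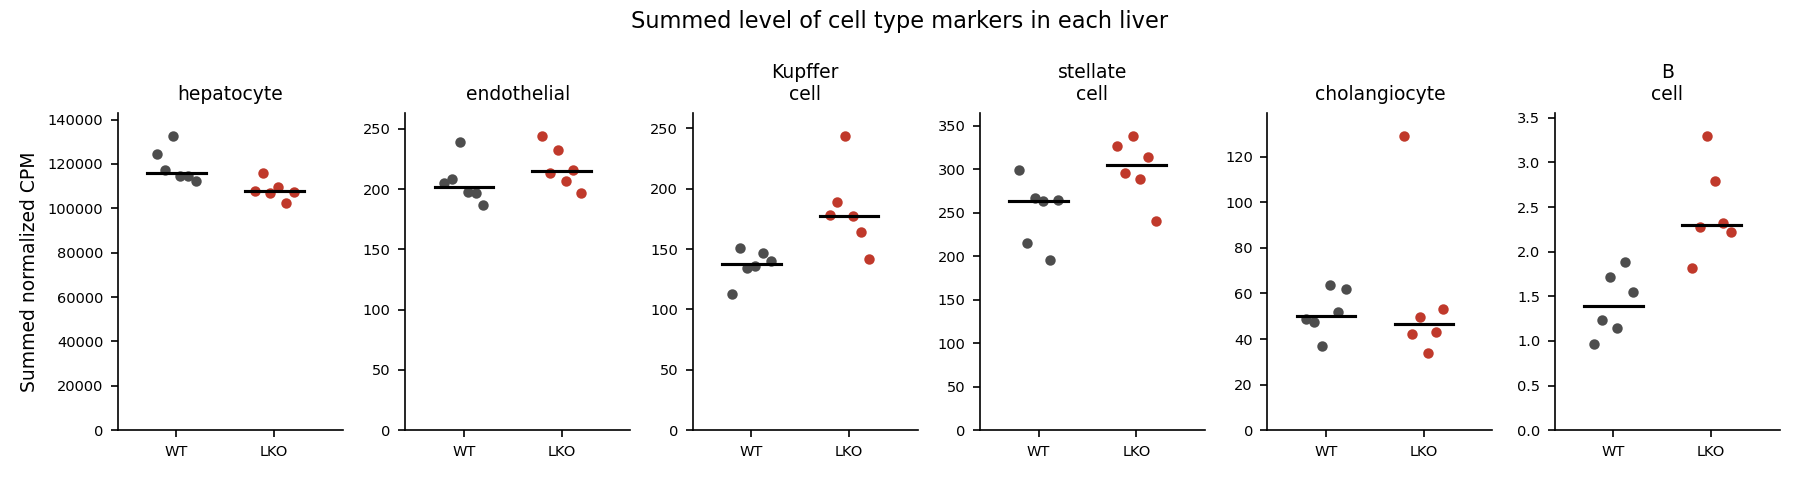
Summed normalized CPM of cell type markers, 1 point per liver, with lines at the group medians and axes from 0. Kupffer cell, stellate cell and B cell sums have higher medians in LKO, and LKO1 stands apart at 129 CPM for cholangiocyte markers, mostly from *Spp1*.

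*Vldlr* encodes the very low density lipoprotein receptor, which is low in normal liver. The transcript ran from 0.353 to 3.05 CPM in WT, with a median of 0.711, and from 1.04 to 2.92 CPM in LKO, with a median of 1.43. The highest liver of all was WT3, while the other 5 WT livers had at most 0.772 CPM, below all 6 LKO livers. On the log2 scale LKO livers differed by 0.66 ± 0.45 (SE, n = 6 per group, edgeR adjusted p = 0.611). It was 1.39 without WT3 (adjusted p = 0.0769) and 0.37 without LKO5 (0.838). These levels rest on 6 to 48 reads per WT liver and 18 to 68 reads per LKO liver.

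*Fabp4* encodes the fatty acid binding protein of fat cells, macrophages and some endothelium. Its level ran from 4.31 to 16.1 CPM in WT, with a median of 6.35, and from 6.95 to 36.4 CPM in LKO, with a median of 8.38. WT2 and LKO1 were far above the rest of their groups. The fitted log2 fold change was 0.72 ± 0.43 (SE, n = 6 per group, edgeR adjusted p = 0.547), and without LKO1 it was 0.06 (adjusted p = 0.960).

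*Mogat1* encodes a monoacylglycerol acyltransferase that makes diacylglycerol for triglyceride synthesis. It had 1 to 11 reads per WT liver and 2 to 27 reads per LKO liver. Its level ran from 0.0524 to 0.699 CPM in WT, with a median of 0.221, and from 0.134 to 1.21 CPM in LKO, with a median of 0.362. The 2 highest livers were LKO1 and LKO5, and the other LKO livers were within the WT range. The log2 fold change was 1.12 ± 0.57 (SE, n = 6 per group, edgeR adjusted p = 0.474), and the coefficient of variation was 81.1% in WT and 78.2% in LKO.

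Genes of the lipid droplet surface come last. *Cidec*, which encodes a protein that fuses lipid droplets, ran from 2.76 to 16.2 CPM in WT, with a median of 5.63, and from 4.16 to 47.1 CPM in LKO, with a median of 7.40. Its coefficient of variation was 69.6% in WT and 119% in LKO livers, against 22.4% and 32.2% for *Pparg*. The highest livers were WT2 and LKO1, and 5 of 6 LKO livers were within the WT range. The log2 fold change was 1.01 ± 0.58 (SE, n = 6 per group, edgeR adjusted p = 0.531), and without LKO1 it was 0.08 (adjusted p = 0.964).

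*Plin4* encodes a perilipin that coats lipid droplets. Its normalized count ran from 7.27 to 58.7 CPM in WT, with a median of 16.9, and from 14.5 to 45.4 CPM in LKO, with a median of 20.4. All LKO livers were within the WT range. The log2 fold change was 0.14 ± 0.42 (SE, n = 6 per group, edgeR adjusted p = 0.939). It was 0.65 without WT3 and -0.10 without LKO1. *Cidea*, a relative of *Cidec* found in brown fat, had 0 to 2 reads in every liver, 6 reads in all WT and 4 in all LKO livers, and was not tested.

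Per kilobase of exon, the most abundant of the 9 genes was *Cd36*, with 5.36 ± 3.81 CPM per kb in WT and 14.7 ± 7.66 in LKO (SD, n = 6 per group). After *Plin4* and *Cidec*, *Lpl* came next in WT, with 2.72 ± 0.627 CPM per kb, where *Plin4* had 4.08 ± 3.17 and *Cidec* 3.75 ± 2.61. In LKO livers *Lpl* was second, with 6.45 ± 2.47 CPM per kb, where *Cidec* had 7.51 ± 8.92 as an arithmetic mean but a lower mean on the log2 scale used for the order. *Fabp4* and then *Pparg* followed in both groups, and *Pparg* had 1.22 ± 0.274 CPM per kb in WT and 1.97 ± 0.635 in LKO. In each group, the ranges of neighbouring genes in this order overlapped, except *Pparg* and *Mogat1*, which was lower in all livers. *Vldlr* and *Cidea* were last.

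**Figure D3:**
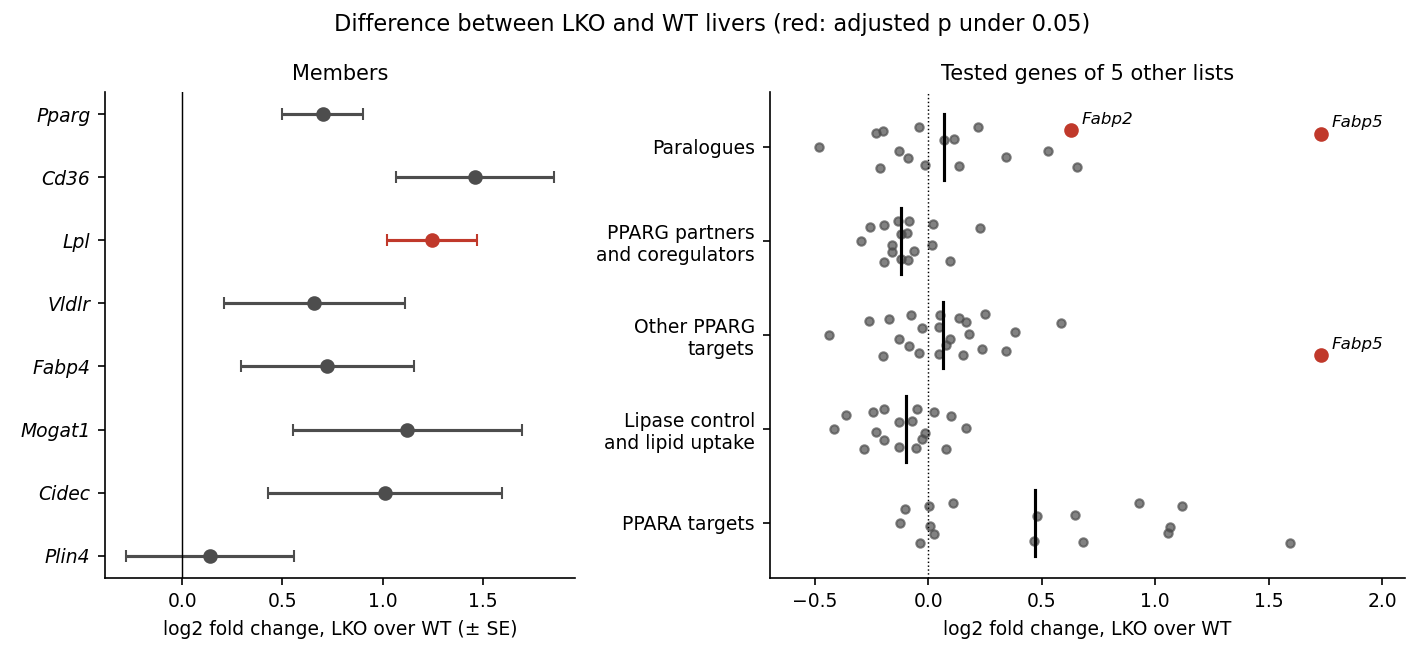
Left, log2 fold change of LKO over WT with its SE for the 8 tested genes, where *Lpl* is past an adjusted p of 0.05. Right, log2 fold changes of the tested genes of 5 other lists, with a line at each median. There *Fabp5* and *Fabp2* are the genes past an adjusted p of 0.05.

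Relatives of these genes were examined to see whether the differences were shared within families. Of 20 paralogues, 17 were tested and 2 rose, *Fabp5* and *Fabp2*. That is 11.8%, where 0.274% of all genes tested rose. Among the 17, 9 had positive and 8 negative log2 fold changes, with a median of 0.07. *Fabp5*, the epidermal fatty acid binding protein that is also a PPARγ-responsive gene, had a median of 38.9 CPM in WT and 143 CPM in LKO livers. It ran from 31.9 to 95.9 CPM in WT and from 92.7 to 255 CPM in LKO, so that WT2 was just above LKO5. Its log2 fold change was 1.73 ± 0.28 (SE, n = 6 per group, edgeR adjusted p = 0.0119), and the gene was called with each liver left out in turn. *Fabp2*, the intestinal form, ran from 48.5 to 80.4 CPM in WT and from 86.9 to 120 CPM in LKO. Its groups did not overlap, as for 1.30% of all genes tested, and its log2 fold change was 0.63 ± 0.11 (edgeR adjusted p = 0.0197). That call was lost without WT1 (adjusted p = 0.0563) or WT5 (0.0550). The liver form *Fabp1* had a log2 fold change of 0.11 ± 0.10 and the brain form *Fabp7* of 0.66 ± 0.22, with edgeR adjusted p of 0.698 and 0.247.

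Other lipid droplet and lipase relatives gave smaller values. *Plin2*, the main perilipin of hepatocytes, had a log2 fold change of 0.34 ± 0.27 and a median of 534 CPM in WT and 604 CPM in LKO livers. The receptor *Ppara* had 173 CPM as its WT median and 141 CPM as its LKO median, with a log2 fold change of -0.21 ± 0.08 (edgeR adjusted p = 0.323). *Lipg*, endothelial lipase, had -0.48 ± 0.31 and did not pass the test (edgeR adjusted p = 0.586), and without WT3 it had -0.038.

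None of the 17 partners and coregulators of PPARγ passed the edgeR test, and 13 had negative log2 fold changes, with a median of -0.12. At an unadjusted p under 0.05, 4 were lower, which is 23.5% where 5.36% of all genes tested were. Among them were *Rxra*, the main retinoid X receptor of liver, with -0.20 ± 0.07, the coactivator *Ncoa2* with -0.20 ± 0.06, and *Creb3l3*, a liver transcription factor, with -0.16 ± 0.07. The largest positive values were 0.23 ± 0.38 for the repressor *Hes1*, which had 0.040 without LKO5, and 0.10 ± 0.23 for the coactivator *Ppargc1a*. *Cebpb*, which acts upstream of PPARγ in fat cells, had -0.30 ± 0.22.

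Of 30 other PPARγ target genes, 24 were tested and *Fabp5* was the one that rose. That is 4.17%, where 0.274% of all genes tested rose. The list had a median log2 fold change of 0.06, with 15 positive and 9 negative values, so that it lay below the median of 0.87 of the members. *Me1*, the malic enzyme that supplies NADPH for fatty acid synthesis, had 0.58 ± 0.20 (edgeR adjusted p = 0.249) and 0.82 without WT3 (0.00902). *Cav1*, of membrane caveolae, had -0.44 ± 0.13 and *Cpt1b*, the muscle carnitine palmitoyltransferase, -0.26 ± 0.25. Fat cell genes of this list, *Adipoq*, *Plin1*, *Retn*, *Ucp1* and *Aqp7*, and the lipoprotein receptor *Olr1* were at or near 0 in these livers and were not tested.

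The genes listed as controlling lipoprotein lipase or taking up lipid had mostly negative values. This list leaves out *Cd36*, *Lpl* and *Vldlr*, which are members and had positive values, so it does not describe lipid uptake genes as a class. Of 18 genes, all tested, none passed the edgeR test, and 14 had negative log2 fold changes with a median of -0.10. At an unadjusted p under 0.05, 6 were lower and 0 were higher, where 5.36% of all genes tested were lower and 6.33% higher. *Lrp1*, the remnant receptor, had the lowest edgeR adjusted p, 0.0809, with 1406 to 1840 CPM in WT, 1084 to 1414 CPM in LKO and a log2 fold change of -0.36 ± 0.08. *Lmf1* and *Sel1l*, which help lipoprotein lipase to fold in the endoplasmic reticulum, had -0.24 ± 0.07 and -0.28 ± 0.08 with edgeR adjusted p of 0.153 and 0.149. *Gpihbp1*, which anchors the lipase on capillaries, had 0.08 ± 0.12. The inhibitors *Angptl4* and *Angptl8* had -0.13 ± 0.20 and -0.42 ± 0.43, the latter -0.097 without WT1. *Msr1*, a macrophage scavenger receptor, had 0.16 ± 0.12.

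Of the 5 other lists, the target genes of PPARα had the median closest to that of the members. Of 16 genes, all tested, none passed the edgeR test, while 13 had positive log2 fold changes with a median of 0.47. At an unadjusted p under 0.05, 5 were higher, which is 31.2% against 6.33% of all genes tested. *Cyp4a14*, a fatty acid omega-hydroxylase, had a median of 73.6 CPM in WT and 354 CPM in LKO livers and a log2 fold change of 1.60 ± 0.79 (edgeR adjusted p = 0.456). It ran from 23.0 to 691 CPM in WT, with WT3 highest, and from 176 to 1448 CPM in LKO, with LKO5 highest. The log2 fold change was 2.80 without WT3 (edgeR adjusted p = 0.0896) and 1.02 without LKO5 (0.698). *Vnn1*, pantetheinase, had 1.12 ± 0.33 (edgeR adjusted p = 0.168), with 11.6 to 43.5 CPM in WT and 30.3 to 96.2 CPM in LKO. Genes of mitochondrial oxidation had values near 0, with -0.10 ± 0.09 for *Cpt1a* and 0.01 ± 0.09 for *Acadm*.

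Whether the members varied together from liver to liver was examined in log2 CPM, as deviations from the mean of each genotype, so that the difference between genotypes did not enter. Of the 28 pairs of the 8 tested genes, 20 had a positive Pearson r. None had an adjusted p under 0.05 (permutation test with 100000 resamples within genotypes, two-sided, Benjamini-Hochberg over the 28 pairs). At an unadjusted p under 0.05 there were 9 pairs. These share genes and livers, so they are not 9 separate relations. The share over all pairs of genes was not computed, and for *Pparg* against 12774 genes it was 5.16%. By Spearman rho also none of the 28 pairs passed after adjustment. The 3 lowest adjusted p were 0.0514 each, for *Pparg* with *Cd36*, *Pparg* with *Vldlr* and *Cd36* with *Mogat1*.

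For *Pparg* with *Cd36*, r was 0.76 over the 12 livers (permutation p = 0.00524) and rho was 0.64 (permutation p = 0.0465, adjusted 0.179). Within WT livers r was 0.68 (exact permutation p = 0.156) and within LKO livers 0.84 (exact permutation p = 0.0278). Without LKO5 and WT2, the livers farthest from the *Pparg* median, r was 0.75, and with each liver left out in turn it ran from 0.68 to 0.82. For *Pparg* with *Vldlr*, r was 0.74 (permutation p = 0.00551) and rho 0.60 (permutation p = 0.0475, adjusted 0.179). It was 0.82 within WT and 0.84 within LKO livers (exact permutation p = 0.0472 in each), and 0.61 without LKO5 and WT2. WT3 and LKO5, the livers highest in *Pparg* in their groups, were also highest in *Cd36* and *Vldlr*.

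For *Cd36* with *Mogat1*, r was 0.80 (permutation p = 0.00443) and rho 0.69 (permutation p = 0.0205, adjusted 0.167), and r was 0.74 without LKO5 and WT6. Without WT5 this r was 0.88 and passed (adjusted permutation p = 0.00588). *Pparg* with *Mogat1* had an r of 0.63 and a rho of 0.49 (permutation p = 0.0400 and 0.118, adjusted 0.140 and 0.339). None of the 56 values within a genotype passed an adjusted p of 0.05.

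*Cidec* and *Fabp4* were highest in other livers, WT2 and LKO1. Their r was 0.81 (permutation p = 0.0162, adjusted 0.0907), but rho was 0.46 (permutation p = 0.154, adjusted 0.359), and r was -0.05 without LKO1 and WT2, so the relation rests on those livers. *Cidec* with *Plin4* had an r of 0.69 (permutation p = 0.00986, adjusted 0.0690) and a rho of 0.84 (permutation p = 0.00214, adjusted 0.0599). That r was 0.70 without LKO1 and WT2, and 0.89 without WT3, where it passed (adjusted p = 0.00644). *Pparg* had an r of 0.09 with *Cidec* and -0.11 with *Fabp4*, with permutation p of 0.792 and 0.740 and rho of 0.24 and 0.03. Both of these r changed sign when single livers were left out.

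*Lpl*, the member that rose, had a negative r with *Pparg*. Their r was -0.33 and rho -0.41 (permutation p = 0.345 and 0.236, adjusted 0.439 and 0.441). Leaving out 1 liver gave an r from -0.52 (LKO6) to -0.10 (WT3). With *Vldlr*, *Lpl* had an r of -0.65 and a rho of -0.75 (permutation p = 0.0230 and 0.00720, adjusted 0.107 and 0.101). That r was -0.27 without LKO1 and WT3. WT3 had the lowest *Lpl* and the highest *Cd36*, *Vldlr*, *Plin4* and *Pparg* among WT livers. Within WT livers *Lpl* and *Cd36* had an r of -0.99 (exact permutation p = 0.00417, adjusted 0.156) and within LKO livers 0.15 (exact permutation p = 0.736), and the difference between genotypes was not tested.

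**Figure D4:**
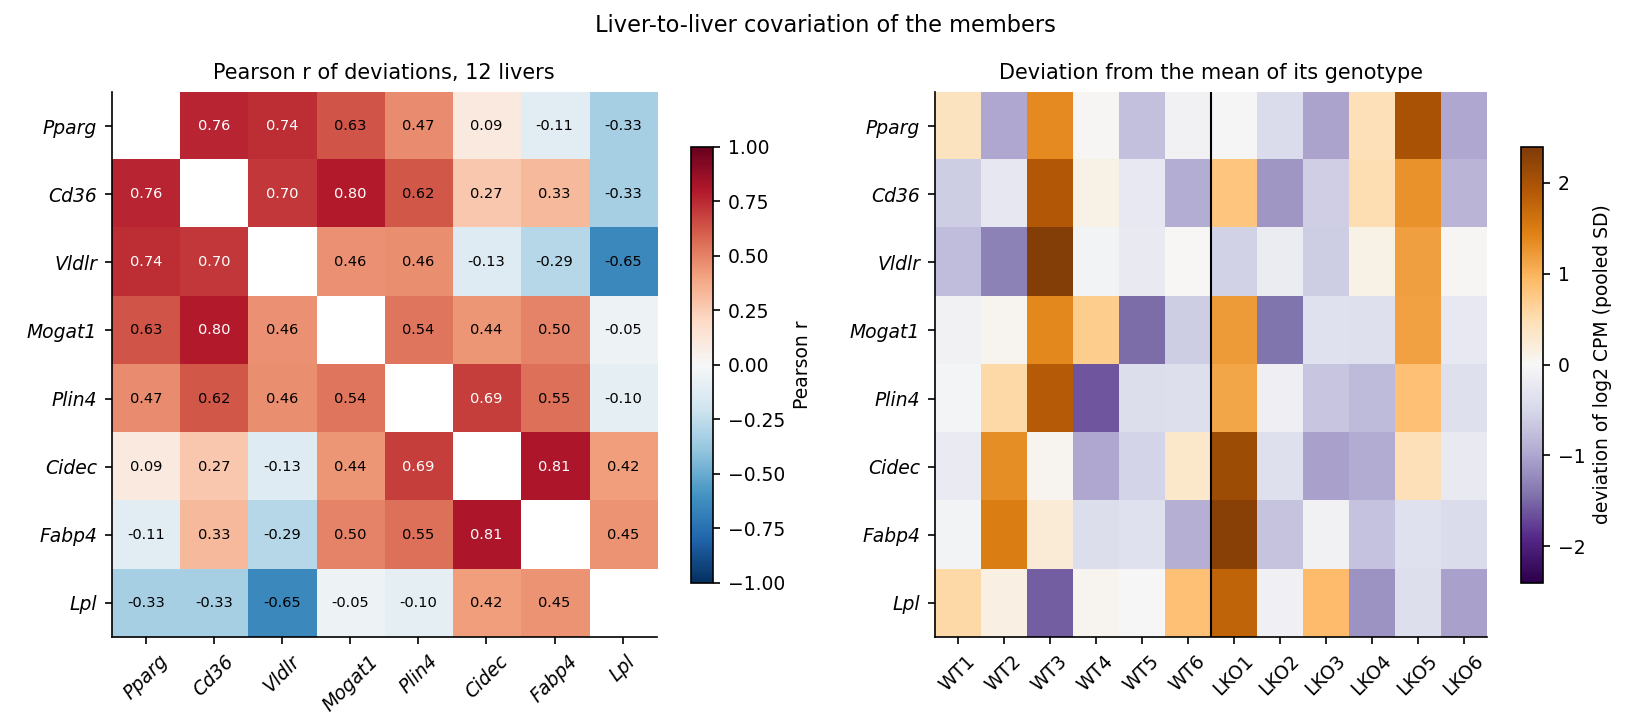
Left, Pearson r of each pair of the 8 tested genes over 12 livers in deviations from the genotype mean. Right, those deviations of log2 CPM in units of the pooled SD for each liver, with the line separating WT from LKO: WT3 and LKO5 have the highest *Pparg*, *Cd36* and *Vldlr* of their groups, WT2 and LKO1 the highest *Cidec* and *Fabp4*, and LKO1 also the highest *Mogat1*, *Plin4* and *Lpl* of LKO.

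**Figure D5:**
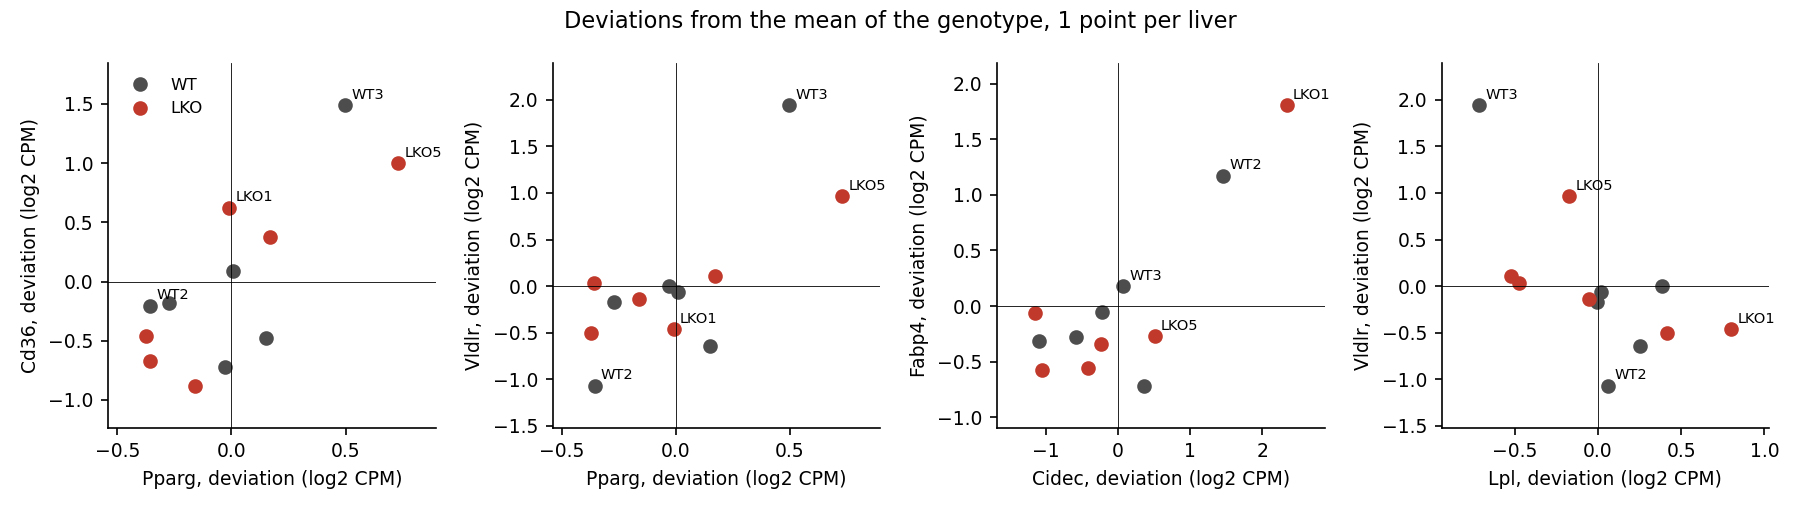
Deviations of log2 CPM from the genotype mean for 4 pairs of genes, 1 point per liver, grey for WT and red for LKO. The r are 0.76 for *Pparg* with *Cd36*, 0.74 for *Pparg* with *Vldlr*, 0.81 for *Cidec* with *Fabp4*, carried by LKO1 and WT2, and -0.65 for *Lpl* with *Vldlr*.

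By liver, WT3 was above the mean of its genotype in 7 of the 8 genes, all but *Lpl*, and LKO1 and LKO5 in 6 of 8. WT5 and LKO2 were above it in 0 of 8. The median deviation over the genes was 1.37 pooled SD in WT3, 1.16 in LKO1 and 1.00 in LKO5, and between -0.60 and 0.10 in the other livers. Their total counts were 16556634, 20722320 and 22111926 reads, the last being the highest of the series, and the part of depth in these values was not tested.

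To place these relations, the deviations of *Pparg* were compared with those of 12774 genes with a mean of at least 1 CPM. The middle of these r was 0.00 (-0.23 to 0.22 from the lower to the upper quartile). *Cd36* ranked 32nd and *Vldlr* 51st from the most positive, *Plin4* 843rd, *Cidec* 4946th, *Fabp4* 7987th and *Lpl* 10766th, and *Mogat1* was below 1 CPM. No gene had an adjusted p under 0.05 (0% of those compared, permutation test), and 659 (5.16%) had an unadjusted p under 0.05.

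The 5 genes most like *Pparg* over the 12 livers were *Acadm*, medium-chain acyl-CoA dehydrogenase (r = 0.88, rho = 0.82), *G0s2*, the inhibitor of adipose triglyceride lipase (0.87 and 0.72), *Acot2*, a mitochondrial acyl-CoA thioesterase (0.87 and 0.81), *Pcdh17*, a protocadherin (0.86 and 0.76), and *Tenm3*, a teneurin (0.85 and 0.75). Their permutation p were 0.00099 for *Acadm*, 0.00106 for *G0s2*, 0.0008 for *Acot2*, 0.00019 for *Pcdh17* and 0.00177 for *Tenm3*, with adjusted p of 0.766 or more. Without LKO5 and WT2 these r were 0.74 to 0.87. The 3 genes most opposite were *Mup1* (r = -0.90, rho = -0.91), *Mup7* (-0.90 and -0.87) and *Gm5120* (-0.90 and -0.90), again with adjusted p of 0.766 or more. *Mup1* and *Mup7* encode major urinary proteins, a family of near-identical genes among which reads may be shared, so their single values are uncertain. *Mup1* fell in LKO livers, with a log2 fold change of -1.76 (edgeR adjusted p = 0.0144).

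*Acadm* is also on the PPARα list, and the 8 members were therefore compared with its 16 genes, in 128 pairs chosen after the values were seen. The median r with these genes was 0.63 for *Pparg*, 0.62 for *Plin4*, 0.60 for *Cd36*, 0.57 for *Mogat1*, 0.52 for *Vldlr*, 0.45 for *Cidec* and 0.20 for *Fabp4*, and it was -0.23 for *Lpl*. After adjustment over the 128 pairs, 5 passed by r and 0 by rho. Among them were *Pparg* with *Acadm* (r = 0.88, rho = 0.82), *Mogat1* with *Vnn1* (0.90 and 0.85), *Cd36* with *Vnn1* (0.83 and 0.76), and *Cidec* with *Ehhadh*, the peroxisomal bifunctional enzyme (0.88 and 0.80). The adjusted permutation p of the 5 pairs were 0.0474 to 0.0489 by r and 0.126 to 0.144 by rho, and without the 2 farthest livers these r were 0.65 to 0.87. The 128 pairs share genes and livers, so they are not separate relations. How many pairs of the members with other genes would pass was not computed. The r of *Pparg* with *Acadm* led to this comparison, so its pass is not a separate result. Among the 12774 genes from which *Acadm* was picked, its adjusted permutation p was 0.875.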

How the data were processed

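Livers of 6 WT and 6 *Marchf6* LKO mice were profiled, grouped by genotype in the labels, with 1 library per mouse. By the submitters' processing notes, reads were checked with FastQC 0.11.15, trimmed with Trimmomatic 0.36, aligned with HISAT2 2.1.0 to GRCm38.p6 and counted with HTSeq 0.6.1. What the authors deposited are read counts for each Ensembl gene, neither normalized nor filtered. All columns of the table belong to a sample. Names came from GENCODE M21, which held 54165 of 54232 identifiers.

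A gene entered the tests when 6 or more livers had over 2 reads on it. Tests were run in edgeR 4.0.16 (R 4.3.3), with TMM scaling, the quasi-likelihood test, genotype as the term and Benjamini-Hochberg adjustment over 17509 genes. The study's own test, limma voom (limma 3.58.1), was an alternative, as were DESeq2 1.42.0, RLE and upper-quartile scaling, other filters, a replicate block and each liver left out. Standard errors are the log2 fold change over the square root of F. Correlations used log2 CPM with a prior count of 0.5 as deviations from the genotype mean, with 100000 permutations of livers within genotypes (numpy 2.4.6). The edgeR test and the permutation test of Pearson r were first run on simulated data, and the other tests were not.

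The members, the lists (paralogues, partners and coregulators, other PPARγ targets, lipase control and uptake, PPARα targets, and markers of hepatocytes, adipocytes, endothelium, Kupffer cells, stellate cells, cholangiocytes and B cells) and the tests were chosen with earlier results of these data known. Named were all members, the genes past the test in each list and, where these were under 4, the 2 largest rises and falls, and the 5 genes most like and 3 most opposite to *Pparg*. *Fabp1*, *Plin2*, *Ppara*, *Rxra*, *Ncoa2*, *Creb3l3*, *Lmf1*, *Sel1l*, *Gpihbp1*, *Angptl4* and *Ehhadh* were named after their values were seen. So were the hepatocyte marker *Alb* and the cholangiocyte markers *Spp1*, *Krt19*, *Epcam*, *Krt7* and *Sox9*. Some genes of these lists and of this rule are counted but not reported here by name. *Gyk* was read as *Gk*. Reads carry no molecular identifiers, so a number of reads is not a number of molecules. The p-values weigh a difference or a correlation against the spread between mice.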

Additional observations from a re-analysis of the deposited data

Results flagged for a closer look

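Within each group of 6 livers, a liver was singled out when its gap to the next liver in normalized CPM, divided by the range of the group, exceeded Dixon's 95% critical value for 6 samples. Of the 16 groups formed by the 8 tested members, 7 held such a liver, where chance gives 0.8. On log2 CPM, a scale added after the values were seen, 4 of the 16 did: WT3 for *Cd36* (0.631), *Vldlr* (0.645) and, as the lowest WT liver, *Lpl* (0.647), and LKO1 for *Fabp4* (0.785). Of all 50 groups searched (with 16 other named genes and the total counts), 10 did, where chance gives 2.5. The groups are not independent, since the same livers recur, and the share that chance gives assumes normal values.

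WT3 was the highest WT liver for *Vldlr* (gap over range 0.844), *Cd36* (0.791), *Cyp4a14* (0.740) and *Lipg* (0.653). LKO5 was the highest LKO liver for *Vldlr* (0.705). LKO1 was the highest LKO liver for *Fabp4* (0.899) and *Cidec* (0.789). WT2 was the highest WT liver for *Fabp5* (0.755), *Fabp4* (0.681) and *Cidec* (0.641). In normalized CPM no liver was singled out for *Pparg*, *Lpl*, *Mogat1* or *Plin4*, and none for total counts.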

How the results depend on the processing

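The 69 fold changes of members under other scalings, filters and tests kept their direction and their side of an adjusted p of 0.05. *Mogat1* (at least 10 reads in every liver, and filterByExpr) and *Vldlr* (at least 10 reads) gave no value under filters that removed them. With 1 liver left out, the number of members called ran from 0 to 2, of paralogues from 1 to 2 (*Fabp2* missed it without WT1 or WT5), of other PPARγ targets from 1 to 2, of lipase control and uptake genes from 0 to 1, and of member pairs that covary from 0 to 1, while that of partners and of PPARα targets stayed at 0. DESeq2 called 2 lipase control and uptake genes, and 351 genes in all against 75. A prior count of 2 let 3 member pairs pass (*Pparg* with *Cd36*, *Pparg* with *Vldlr*, *Cd36* with *Mogat1*, adjusted permutation p = 0.0496 each). Without WT3, 132 genes were called, and without WT5, 38. With 1 liver left out, the log2 fold change of *Plin4* ran from -0.10 (LKO1) to 0.65 (WT3), also reversing without WT4 (-0.05) or LKO5 (-0.01), and that of *Ppargc1a* from -0.040 (LKO4) to 0.32 (WT3). The correlation of *Pparg* with *Cidec* ran from -0.039 (LKO3) to 0.30 (WT2), also reversing without LKO5 (-0.024). That with *Fabp4* ran from -0.17 (LKO6) to 0.079 (WT2) and was 0.028 as rho. The causes were not tested. Same-numbered livers correlated by -0.065 to 0.135, with 4 of 6 pairs over 0.1, and 5 livers correlated best with their own number, as a hint from the data and not the design, so the numbers were not taken as pairs. With the replicate number as a block, 97 genes were called, and the members called stayed at 1 (*Lpl*, adjusted p = 0.0448), paralogues at 2, other PPARγ targets at 1 and the other lists at 0. The low counts of *Mogat1*, *Vldlr* and *Cidea* limit what their values can show.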
